A study of Mus musculus with 15 samples.

Results

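Dazl, Stra8, Sycp1, Sycp2, Sycp3, Hormad1, Smc1b, Syce1, Stag3 and Tex11 are genes of meiotic entry and of the synaptonemal complex, and they were followed here in mouse embryonic stem (ES) cells after knockdown of Tet1 or Sin3A. They were found by gene symbol in the platform annotation, and each had 1 probe set, so that 10 of 18784 genes with a symbol (21212 probe sets in all) were followed. Their Entrez gene numbers, which name the probe sets in the table, are 13164 (Dazl), 20899 (Stra8), 20957 (Sycp1), 320558 (Sycp2), 20962 (Sycp3), 67981 (Hormad1), 140557 (Smc1b), 74075 (Syce1), 50878 (Stag3) and 83558 (Tex11). RNA from 15 samples of E14TG2a.4 cells was hybridised to 1 Affymetrix array each. E14TG2a.4 is a feeder-independent ES line, here at passage 17, grown on gelatin in serum with leukaemia inhibitory factor. All 15 samples had received a lentivirus made with the PLKO.1 vector, which carries a short hairpin RNA (shRNA), and puromycin at 2 µg per ml from 36 hours after transduction for 72 hours. In the Tet1 set, 3 arrays each came from cells with Tet1 shRNA 4, with Tet1 shRNA 5 and with a scrambled hairpin. The Sin3A set held 3 arrays each of its own scrambled hairpin and of a Sin3A shRNA, for which 1 hairpin was used. Tet1 encodes a dioxygenase that oxidises 5-methylcytosine in DNA, while the SIN3A protein holds together a co-repressor complex with histone deacetylases. No sample was a germ cell, and the labels do not tell whether replicates were separate cultures, so every p-value measures the spread among replicate arrays alone, which could be technical.

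In the germ line, DAZL, an RNA-binding protein, makes germ cells competent to respond to retinoic acid, and STRA8 then switches on the meiotic programme. Each chromosome next folds into loops along an axis of cohesin (SMC1B, STAG3) and axis proteins (SYCP2, SYCP3, HORMAD1), and homologous axes are joined by the transverse filament protein SYCP1 and central element proteins such as SYCE1, while TEX11 acts on crossovers. In ES cells genes of this group are known as targets of promoter DNA methylation and of a Polycomb complex that contains MAX, MGA and E2F6. In female primordial germ cells TET1 is known for its part in the demethylation and activation of meiotic genes, among them Stra8 and Sycp3.

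The promoters of the members with a call for a Tet1 hairpin, and that of Hormad1 for comparison, are shown because TET1 acts on methylated cytosine, which in mammals lies mostly in CG dinucleotides (capitals). Each is the 250 bases before the annotated start in RefSeq (GRCm38.p6), read 5′ to 3′ in the direction of the gene. The table held 9 of the 10 members, all but Tex11. The windows lie at chr17:50293621-50293870 (minus strand, Dazl), chr6:34920698-34920947 (plus, Stra8), chr10:88459337-88459586 (plus, Sycp3), chr3:95559427-95559676 (plus, Hormad1) and chr5:138280259-138280508 (plus, Stag3).
Dazl: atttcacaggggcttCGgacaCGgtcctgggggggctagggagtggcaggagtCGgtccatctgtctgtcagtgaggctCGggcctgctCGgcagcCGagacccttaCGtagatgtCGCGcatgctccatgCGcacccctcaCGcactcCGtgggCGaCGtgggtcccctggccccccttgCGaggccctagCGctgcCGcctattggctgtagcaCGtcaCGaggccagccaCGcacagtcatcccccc
Stra8: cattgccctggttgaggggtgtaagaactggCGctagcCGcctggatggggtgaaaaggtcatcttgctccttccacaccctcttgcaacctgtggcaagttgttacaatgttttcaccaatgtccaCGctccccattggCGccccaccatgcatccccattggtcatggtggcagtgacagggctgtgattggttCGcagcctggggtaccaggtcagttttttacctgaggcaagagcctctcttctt
Sycp3: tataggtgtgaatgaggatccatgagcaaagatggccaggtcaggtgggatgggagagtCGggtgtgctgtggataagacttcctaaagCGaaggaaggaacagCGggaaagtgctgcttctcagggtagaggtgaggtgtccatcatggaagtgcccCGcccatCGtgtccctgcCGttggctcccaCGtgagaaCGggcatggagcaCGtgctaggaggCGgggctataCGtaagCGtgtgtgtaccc
Hormad1: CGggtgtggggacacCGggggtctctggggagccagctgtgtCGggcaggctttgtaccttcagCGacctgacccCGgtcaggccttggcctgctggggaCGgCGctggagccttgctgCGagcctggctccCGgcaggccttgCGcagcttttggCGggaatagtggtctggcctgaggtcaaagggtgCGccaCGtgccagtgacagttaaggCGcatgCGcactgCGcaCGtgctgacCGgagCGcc
Stag3: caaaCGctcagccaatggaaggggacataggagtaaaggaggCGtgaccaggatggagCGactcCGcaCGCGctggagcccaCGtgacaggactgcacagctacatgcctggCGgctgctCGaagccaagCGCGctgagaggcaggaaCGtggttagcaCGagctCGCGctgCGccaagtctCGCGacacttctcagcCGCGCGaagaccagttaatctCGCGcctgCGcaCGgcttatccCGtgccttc

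Dazl held 20 CG dinucleotides in this window, Stra8 5, Sycp3 12, Hormad1 19 and Stag3 26, and the other members held 17 (Sycp1), 7 (Sycp2), 25 (Smc1b) and 13 (Syce1). Over 32851 promoter windows of the same length the median was 6 and the upper quartile 16. Stra8 thus lay below the median, the other 8 above it, and 5 of the 9 above the upper quartile. On both strands 4 motifs were searched: the E-box CACGTG bound by MAX and its partners, the E2F core GCGGGA, the retinoic acid receptor half-site AGGTCA and the STRA8 motif CNCCTCAG. The E-box was in 4 of the 9 windows (Sycp1, Sycp3, Hormad1 and Stag3) against 6.02% of all windows, and each E-box itself holds a CG. Sycp3 carried it at -64 and again at -43, and Hormad1 at -57 and -20, counted from the base before the start as -1. The E2F core was in 3 windows (Sycp3, Hormad1 and Smc1b) against 16.9%, and the half-site in 3 (Stra8 at -194 and -38, Sycp3, Hormad1) against 14%. The STRA8 motif was in 0 of the 9 windows against 6.42% of all. Dazl, Sycp2 and Syce1 held none of the 4. These matches describe letters only, and DNA methylation was not measured on these arrays.

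**Figure D1:**
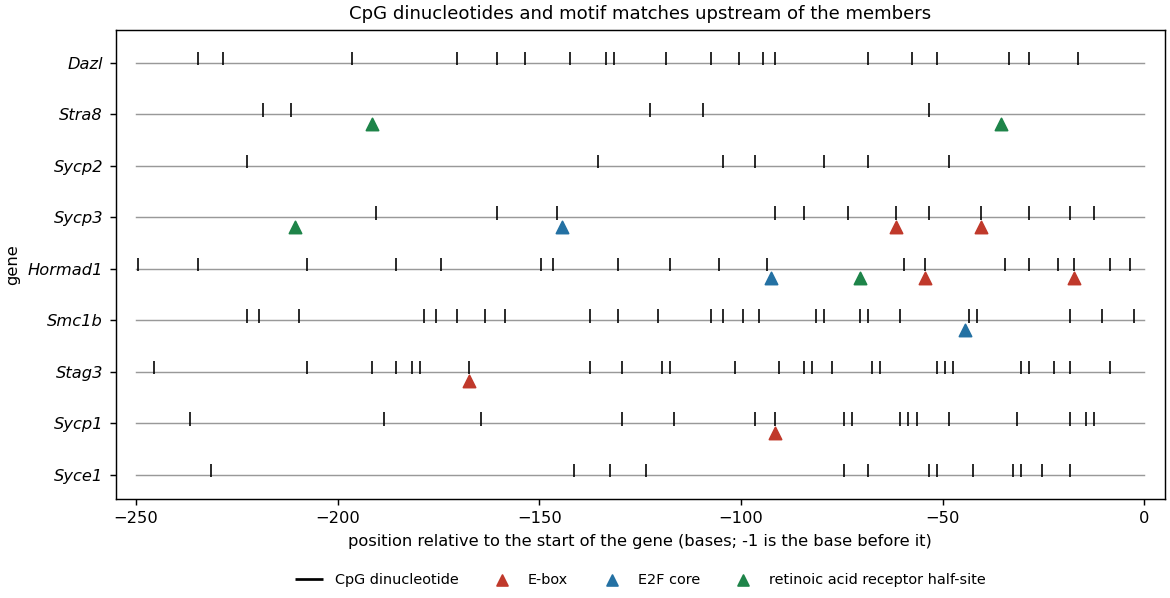
Position of CpG dinucleotides (black ticks) and motif matches (triangles, coloured by motif) in the 250 bases before the start of 9 members; the x axis is the distance from the start in bases and each line is a gene. Sycp3 and Hormad1 each carry 2 E-boxes close to the start, and Stra8 has 5 CpG against 12 to 26 in Dazl, Sycp3, Hormad1 and Stag3.

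The targeted genes were lowered as labelled. The mean log2 level of Tet1 was 12.20 in scrambled cells, 10.42 with shRNA 4 and 10.09 with shRNA 5, and Sin3a fell from 10.93 to 9.38 with its hairpin (limma adjusted p = 2.08e-06, 1.51e-06 and 1.28e-05). Sin3a also fell slightly with the Tet1 hairpins (log2 change -0.27 and -0.24), and Tet1 rose by 0.31 in the Sin3A knockdown. All 9 ES cell markers were above the median probe set in every group, with means over the list from 11.84 to 12.43 per array. Averaged over all probe sets, Tet1 set arrays lay between 7.08 and 7.11 and Sin3A set arrays at 8.09, and the sources used here do not state how the sets were scaled, so levels are compared only within a set. Replicates correlated across probe sets at 0.994 to 0.998. In the Tet1 set the scrambled replicate 2 and the shRNA 4 replicate 2 stood apart from their own groups in a like way (r = 0.517 over probe sets), and results that rest on them are given without them too. The precision is limited by how few arrays each group has.

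Of the 10 genes, 3 were called higher and 1 lower with Tet1 shRNA 4, 2 higher and 1 lower with Tet1 shRNA 5, and 1 higher and 5 lower with the Sin3A shRNA. With Tet1 shRNA 4, Dazl, Stra8 and Stag3 rose, Sycp3 fell and 6 did not pass (limma, Benjamini-Hochberg adjusted p below 0.05 over all probe sets), against 6.88% of all probe sets called higher and 4.71% called lower. With Tet1 shRNA 5, Dazl and Stra8 rose, Sycp3 fell and 7 did not pass, against 8.37% called higher and 5.46% lower. Both comparisons use the same 3 scrambled arrays. The members were chosen with earlier results of these data known, and such results named Dazl, Stra8 and Sycp3. Those are the genes called with both Tet1 hairpins, so the members' counts here and below are no independent test beside the shares. Between the Tet1 hairpins 0 members passed in limma (Stag3 alone had an unadjusted p below 0.05, at 0.000228), against 0.141% of probe sets called in either direction. With the Sin3A shRNA, Stra8 rose, Sycp2, Smc1b, Syce1, Stag3 and Tex11 fell and 4 did not pass, against 12.2% of all probe sets called higher and 12.6% called lower. The 5 lower calls became 3 without replicate 1 or 2 of the Sin3A shRNA, and the 1 higher call became 0 without replicate 2. Leaving out scrambled replicate 3 of the Tet1 set gave 3 higher with shRNA 5, and leaving out scrambled replicate 2 gave 2 lower. The median log2 change of the 10 genes was 0.10 with Tet1 shRNA 4, 0.13 with shRNA 5 and -0.33 with the Sin3A shRNA, where the median over all probe sets lay within 0.01 of 0. In these bulk samples, fewer cells that express a gene and less RNA of it per cell cannot be told apart.

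**Figure D2:**
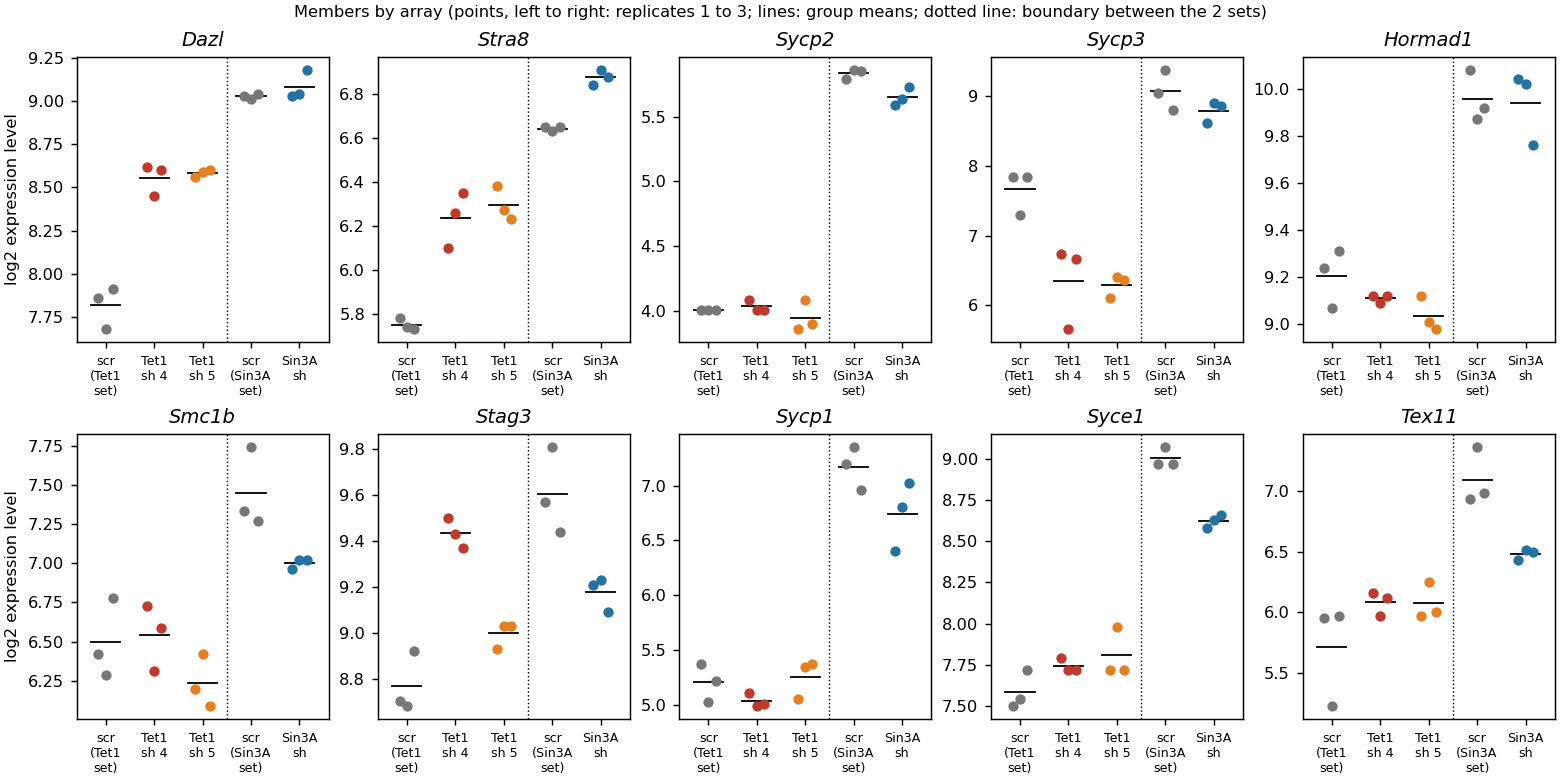
Log2 expression level (y axis) of each member on each of the 15 arrays (points, 3 per group, ordered by replicate number) with group means (lines); x axis, the 5 groups, with a dotted line between the Tet1 set and the Sin3A set. Dazl and Stra8 are higher and Sycp3 lower on all 6 Tet1 knockdown arrays than on the 3 scrambled arrays. Sycp2, Smc1b, Syce1, Stag3 and Tex11 are lower, and Stra8 is higher, on all 3 Sin3A knockdown arrays than on the scrambled arrays of that set.

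Dazl, which encodes the RNA-binding protein that makes germ cells competent for meiosis, was at log2 levels of 7.86, 7.68 and 7.91 on the scrambled arrays of the Tet1 set. It stood at 8.62, 8.45 and 8.60 with Tet1 shRNA 4 and at 8.56, 8.59 and 8.60 with shRNA 5. All 6 knockdown arrays were thus above all 3 scrambled arrays, and the hairpin groups overlapped each other. The change was 0.74 ± 0.08 (SE, n = 3 against 3; 1.67-fold; limma adjusted p = 0.00022) with shRNA 4 and 0.77 ± 0.08 (1.71-fold; adjusted p = 0.000178) with shRNA 5. The difference between the hairpins was 0.03 (95% confidence interval -0.14 to 0.20). In the Sin3A set Dazl was at 9.03, 9.01 and 9.04 with the scrambled hairpin and at 9.03, 9.04 and 9.18 with the Sin3A shRNA, a change of 0.06 (interval -0.07 to 0.19; limma adjusted p = 0.504).

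Stra8, the retinoic acid-induced gene that starts the meiotic programme, was at 5.78, 5.74 and 5.73 on the scrambled arrays. It was at 6.10, 6.26 and 6.35 with Tet1 shRNA 4 and at 6.38, 6.27 and 6.23 with shRNA 5. No knockdown array reached down to the scrambled ones, whose spread was 0.03 (SD). These levels were low on the array: the mean percentile among probe sets was 29.2 with the scrambled hairpin, 38.2 with shRNA 4 and 39.3 with shRNA 5. In the Sin3A set it was 26.0 with the scrambled hairpin and 30.1 with the Sin3A shRNA. The change was 0.49 ± 0.07 (1.40-fold; limma adjusted p = 0.00231) and 0.54 ± 0.07 (1.46-fold; adjusted p = 0.00118). Stra8 was also the member that rose in the Sin3A knockdown, from 6.65, 6.63 and 6.65 to 6.84, 6.91 and 6.88. That change was smaller, 0.23 ± 0.05 (1.18-fold; limma adjusted p = 0.00938), and its call was lost without replicate 2 of the Sin3A shRNA (adjusted p = 0.0507).

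Sycp3, an axis protein gene that is a standard marker of meiotic chromosomes, went the other way with the Tet1 hairpins and had the widest change of the 10. Its scrambled arrays were at 7.85, 7.29 and 7.85. The shRNA 4 arrays were at 6.74, 5.66 and 6.66 and the shRNA 5 arrays at 6.10, 6.41 and 6.36, all below the scrambled ones. The change was -1.31 ± 0.27 with shRNA 4 (2.48-fold lower; interval -1.90 to -0.72; limma adjusted p = 0.0104) and -1.37 ± 0.27 with shRNA 5 (2.59-fold lower; adjusted p = 0.00725). Both replicate 2 arrays that stood apart were the lowest of their groups. Without the shRNA 4 one the change with that hairpin was -0.96 (limma adjusted p = 0.00844), and without both it was -1.15 (adjusted p = 0.00123) and -1.56 with shRNA 5 (adjusted p = 0.000311). In the Sin3A set Sycp3 was at 9.05, 9.38 and 8.80 with the scrambled hairpin and at 8.62, 8.91 and 8.86 with the Sin3A shRNA. Those groups overlapped, with a change of -0.28 (interval -0.61 to 0.05; limma adjusted p = 0.203).

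Sycp2 and Hormad1 encode the other axis proteins followed, and neither passed with a Tet1 hairpin. Sycp2, the partner of SYCP3, had log2 levels from 3.86 to 4.08 over the 9 arrays of the Tet1 set, with only 5 distinct values, so that its spread there is partly one of tied values. Its changes were 0.02 and -0.07 (limma adjusted p = 0.895 and 0.614). In the Sin3A set it was at 5.79, 5.86 and 5.85 with the scrambled hairpin and at 5.59, 5.64 and 5.73 with the Sin3A shRNA, and these groups did not overlap. The change of -0.18 ± 0.06 (limma adjusted p = 0.0467) was small, at mean percentiles among probe sets of only 15.1 (scrambled) and 13.2 (Sin3A shRNA). Its call was lost under 8 of 10 alternatives (adjusted p = 0.051 to 0.146), among them leaving out any scrambled array or replicate 1 or 2 of the Sin3A shRNA. Hormad1, which marks axes that have not yet synapsed, was between 8.98 and 9.31 on the 9 arrays of the Tet1 set and between 9.76 and 10.08 on the 6 of the Sin3A set. Its changes were -0.09, -0.17 and -0.02 with Tet1 shRNA 4, shRNA 5 and the Sin3A shRNA (limma adjusted p = 0.51, 0.183 and 0.913). The shRNA 5 change was -0.23 and passed without scrambled replicate 2 (limma adjusted p = 0.038) and without both arrays that stood apart (0.041).

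Stag3, a meiosis-specific cohesin subunit, was the member with the smallest p between the Tet1 hairpins. It was at 8.70, 8.68 and 8.92 on the scrambled arrays, at 9.50, 9.43 and 9.37 with shRNA 4, and at 8.93, 9.03 and 9.03 with shRNA 5. The 3 groups lay in steps without overlap, scrambled lowest and shRNA 4 highest. The change was 0.67 ± 0.08 with shRNA 4 (1.59-fold; limma adjusted p = 0.00046) and 0.23 ± 0.08 with shRNA 5, which did not pass (adjusted p = 0.0875) except without scrambled replicate 3 (0.30; adjusted p = 0.0293). The difference of shRNA 5 minus shRNA 4 was -0.44 (interval -0.61 to -0.27; limma adjusted p = 0.0792). It passed narrowly after a repeated quantile normalization (-0.46; adjusted p = 0.0493) and after probe sets below the 25th percentile were left out (-0.44; adjusted p = 0.0492). With the Sin3A shRNA Stag3 fell, from 9.57, 9.81 and 9.44 to 9.21, 9.23 and 9.09, a change of -0.43 ± 0.10 (1.35-fold lower; limma adjusted p = 0.0143).

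Smc1b, the meiotic form of the SMC1 cohesin subunit, was at 6.42, 6.29 and 6.78 on the scrambled arrays, at 6.73, 6.31 and 6.59 with Tet1 shRNA 4 and at 6.20, 6.42 and 6.09 with shRNA 5. These groups overlapped, and the changes were 0.05 and -0.26 (limma adjusted p = 0.896 and 0.321; intervals -0.28 to 0.38 and -0.59 to 0.07). In the Sin3A set it fell from 7.33, 7.74 and 7.27 to 6.96, 7.02 and 7.02, a change of -0.45 ± 0.12 (limma adjusted p = 0.0247), without overlap. That call was lost when any 1 of the 3 Sin3A shRNA arrays was left out (adjusted p = 0.0546 to 0.068).

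Sycp1 and Syce1 encode parts of the synaptonemal complex between the axes. Sycp1, the transverse filament gene, was at 5.37, 5.03 and 5.22 on the scrambled arrays of the Tet1 set, at 5.11, 4.99 and 5.01 with shRNA 4 and at 5.05, 5.35 and 5.37 with shRNA 5. The groups overlapped and the changes of -0.17 and 0.05 did not pass (limma adjusted p = 0.404 and 0.834). In the Sin3A set it was at 7.20, 7.35 and 6.96 with the scrambled hairpin and at 6.40, 6.80 and 7.02 with the Sin3A shRNA, a change of -0.43 that did not pass (limma adjusted p = 0.0906) except without replicate 3 of the Sin3A shRNA (-0.56; adjusted p = 0.0355). Syce1, a central element gene, took 5 distinct values on the 9 arrays of the Tet1 set, from 7.50 to 7.98, and its changes of 0.15 and 0.22 did not pass (limma adjusted p = 0.339 and 0.143). With the Sin3A shRNA it fell from 8.97, 9.07 and 8.97 to 8.58, 8.63 and 8.66, a change of -0.38 ± 0.05 (1.30-fold lower; limma adjusted p = 0.00181), and no knockdown array reached the scrambled ones.

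Tex11, an X-linked gene whose product acts on crossovers, was at 5.95, 5.23 and 5.97 on the scrambled arrays of the Tet1 set, where replicate 2 was the low one. It was at 6.16, 5.97 and 6.12 with shRNA 4 and at 5.97, 6.25 and 6.0 with shRNA 5. Its mean percentile among probe sets was 29.2 on these scrambled arrays. In the Sin3A set it was 34.0 with the scrambled hairpin and 23.3 with the Sin3A shRNA. The changes of 0.37 and 0.36 did not pass (limma adjusted p = 0.258 and 0.251; intervals -0.03 to 0.76 and -0.04 to 0.75). They rest partly on scrambled replicate 2, since the other scrambled arrays, at 5.95 and 5.97, lay close to the hairpin arrays. With the Sin3A shRNA it fell from 6.93, 7.36 and 6.98 to 6.43, 6.51 and 6.50, a change of -0.61 ± 0.11 (1.52-fold lower; limma adjusted p = 0.00509), the widest Sin3A change among the members, with no overlap.

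**Figure D3:**
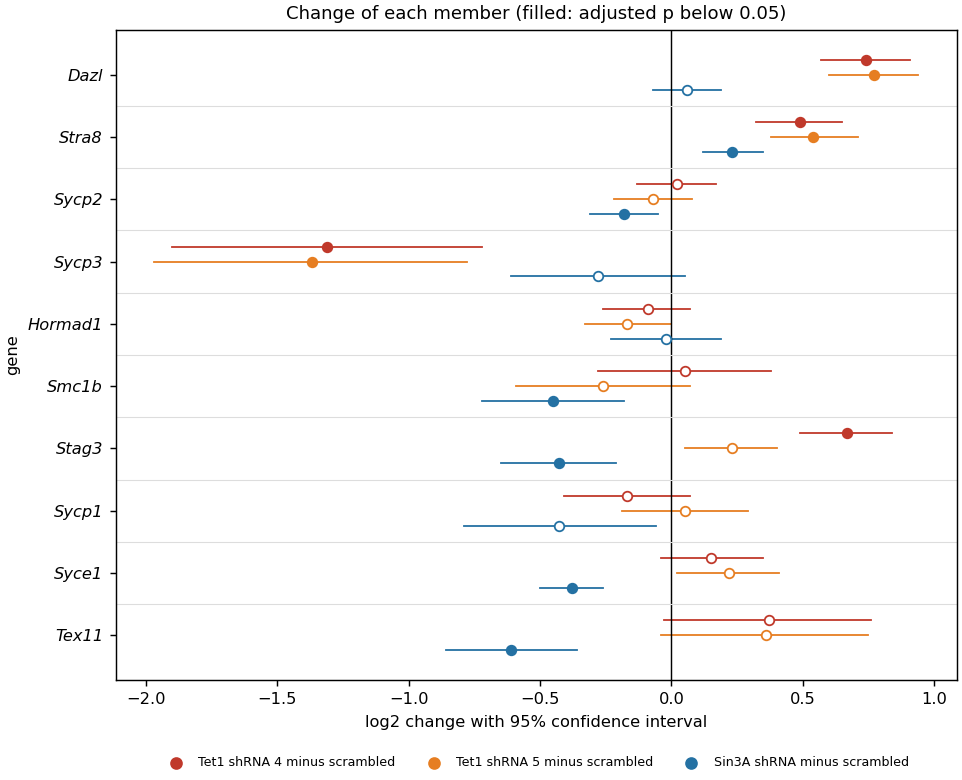
Log2 change of each member against the scrambled arrays of its own set (x axis, points) with its 95% confidence interval (bars), for Tet1 shRNA 4 (red), Tet1 shRNA 5 (orange) and the Sin3A shRNA (blue); filled points have a limma adjusted p below 0.05. Both Tet1 intervals lie above 0 for Dazl, Stra8 and Stag3, whose shRNA 5 point is open, and below 0 for Sycp3. The Sin3A intervals of Sycp2, Smc1b, Stag3, Syce1 and Tex11 lie below 0, as does that of Sycp1, whose point is open.

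Whether a member responded differently to the loss of Tet1 and of Sin3A was tested as the mean Tet1 change minus the Sin3A change, in 1 limma fit of all 15 arrays. It was higher for 5 members (Dazl, Stra8, Syce1, Stag3 and Tex11) and lower for 1 (Sycp3), against 11.3% of all probe sets called higher and 8.71% called lower. The members' median difference was 0.35, against -0.01 over all probe sets. The difference was 0.70 ± 0.09 for Dazl (limma adjusted p = 7.63e-05) and 0.88 ± 0.12 for Stag3 (adjusted p = 0.000119). It was 0.57 for Syce1 (limma adjusted p = 0.000905) and 0.97 for Tex11 (adjusted p = 0.00498), whose own Tet1 changes had not passed and whose Sin3A changes were falls. The Tet1 part for Tex11 rests partly on the low scrambled replicate 2 of the Tet1 set. For Stag3, opposite calls made up the difference, a rise with Tet1 shRNA 4 and a fall with the Sin3A shRNA. For Sycp3 it was -1.06 ± 0.32 (limma adjusted p = 0.0283), a call that was lost without replicate 1 or 3 of either scrambled group or replicate 2 or 3 of the Sin3A shRNA (adjusted p = 0.0605 to 0.0807). For Stra8 it was 0.28 (limma adjusted p = 0.0285), lost under 7 of 21 alternatives (adjusted p = 0.052 to 0.0805). These were leaving out replicate 3 of the scrambled group of the Tet1 set, replicate 1 or 3 of the scrambled group of the Sin3A set, replicate 1 or 3 of the Sin3A shRNA or both arrays that stood apart, and the replicate block. Sycp1, Sycp2, Hormad1 and Smc1b did not pass, with differences of 0.37, 0.16, -0.11 and 0.34.

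**Figure D4:**
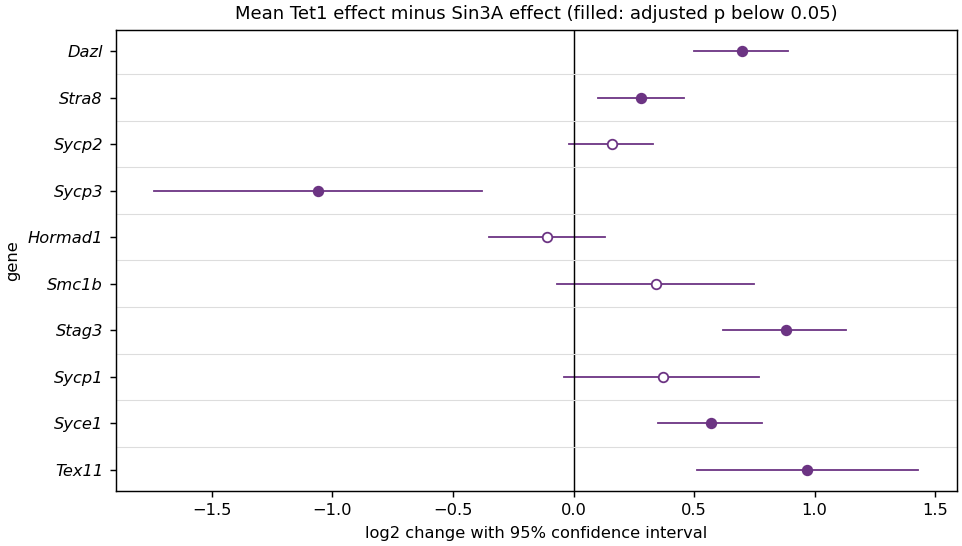
Mean of both Tet1 changes minus the Sin3A change for each member, in log2 units (x axis, points), with its 95% confidence interval (bars) from the limma fit of all 15 arrays; filled points have an adjusted p below 0.05. Sycp3 at -1.06 is the member called lower, and Tex11 (0.97), Stag3 (0.88), Dazl (0.70), Syce1 (0.57) and Stra8 (0.28) are those called higher.

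The counts of other gene lists stand beside the shares of all probe sets, which were 6.88% higher and 4.71% lower with Tet1 shRNA 4, 8.37% and 5.46% with shRNA 5, and 12.2% and 12.6% with the Sin3A shRNA. Of 12 other genes of the axis, cohesin and synaptonemal complex, 2 rose and 1 fell with Tet1 shRNA 4, 1 rose and 0 fell with shRNA 5, and 0 rose and 2 fell with the Sin3A shRNA, with medians of 0.02, -0.05 and -0.07. These counts are small and moved with single arrays. For shRNA 5 there were 3 higher without scrambled replicate 3 and 2 lower without scrambled replicate 2. Without both arrays that stood apart 2 were lower with shRNA 4 and 1 was lower with shRNA 5. For shRNA 4 there was 1 higher without its replicate 1, with 2 lower without scrambled replicate 2 and 0 lower without any other array of these 2 groups. The Sin3A shRNA had 1 lower without its replicate 2. Hormad2, the relative of Hormad1 that also marks unsynapsed axes, had the widest change. It was at 6.89, 6.19 and 6.42 on the scrambled arrays of the Tet1 set, at 7.84, 7.54 and 7.99 with shRNA 4 and at 7.54, 7.77 and 7.54 with shRNA 5. All 6 knockdown arrays were above the scrambled ones, with changes of 1.29 ± 0.17 and 1.11 ± 0.17 (limma adjusted p = 0.00109 and 0.00231). Hormad2 fell with the Sin3A shRNA, from 6.67, 6.69 and 6.63 to 6.19, 6.18 and 6.49 (-0.38; limma adjusted p = 0.0144, lost without replicate 2 of the Sin3A shRNA at 0.0591). In that set its levels were low on the array, at mean percentiles of 26.4 (scrambled) and 20.6 (Sin3A shRNA). Sun1, which tethers telomeres to the nuclear envelope, rose by 0.32 with shRNA 4 (limma adjusted p = 0.0114), a call lost without replicate 1 of that hairpin (0.0544). Trip13, the ATPase that removes HORMA proteins from axes, was at -0.40 with shRNA 4 (limma adjusted p = 0.0273), and its call was lost under 6 of 17 alternatives, among them leaving out any array of that hairpin. The central element gene Six6os1, listed as 4930447C04Rik, fell by 0.87 with the Sin3A shRNA (limma adjusted p = 0.0142). With Tet1 shRNA 4 and shRNA 5 it was at -0.56 and -0.81, which did not pass (limma adjusted p = 0.245 and 0.0757). The scrambled arrays of the Tet1 set were at 7.96, 7.04 and 7.87 for this gene, with replicate 2 the low one.

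Of 20 meiotic recombination genes, 2 rose and 3 fell with Tet1 shRNA 4, 2 rose and 1 fell with shRNA 5, and 2 rose and 8 fell with the Sin3A shRNA, with medians of -0.01, -0.05 and -0.10. The 8 lower became 5 after probe sets below the 25th percentile were left out, and the 3 lower with shRNA 4 became 1 without scrambled replicate 1 or 3. The 2 higher with shRNA 4 became 1 without any single array of the Tet1 set other than scrambled replicate 1, and those with shRNA 5 became 1 without scrambled replicate 3 or any array of that hairpin. The 1 lower with shRNA 5 became 2 without scrambled replicate 2 and also without both arrays that stood apart. The 2 higher with the Sin3A shRNA became 0 without scrambled replicate 2 or 3 or replicate 3 of the hairpin, and 1 without scrambled replicate 1 or replicate 2 of the hairpin. Mei4 and Rec114 encode partners in the formation of DNA double-strand breaks and went opposite ways. Mei4 was at 8.25, 8.06 and 8.15 on the scrambled arrays of the Tet1 set and fell with both Tet1 hairpins and with the Sin3A shRNA, by log2 changes of -0.50, -0.61 and -0.93 (limma adjusted p = 0.0018, 0.000569 and 0.000173). Rec114 rose by 0.53, 0.57 and 0.28 in the same comparisons (limma adjusted p = 0.00464, 0.00287 and 0.0371). The Sin3A call of Rec114 was lost under 5 of 11 alternatives, among them leaving out replicate 2 or 3 of either group. Hsf2bp, which brings BRCA2 to meiotic breaks, was at 0.34 and 0.37 with the Tet1 hairpins, with calls lost under 10 and 6 of 17 alternatives that included leaving out single arrays. In the Sin3A knockdown it fell by 0.57 (limma adjusted p = 0.000238), from 10.81, 10.72 and 10.75 to 10.20, 10.17 and 10.18. Spata22, a partner of MEIOB on single-stranded DNA, fell by 0.69 with the Sin3A shRNA (limma adjusted p = 0.00856) and was at -0.46 with Tet1 shRNA 4 (adjusted p = 0.0176, lost under 4 of 16 alternatives that included leaving out scrambled replicate 1 or 3). Its levels were low on the array, at mean percentiles of 17.9 (scrambled) and 13.2 (shRNA 4) in the Tet1 set. In the Sin3A set they were 27.8 (scrambled) and 17.7 (Sin3A shRNA).

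Of 16 regulators of meiotic entry, which include the retinoic acid receptors and enzymes, 0 passed with either Tet1 hairpin in limma (1 and 2 had an unadjusted p below 0.05 with shRNA 4 and shRNA 5). With the Sin3A shRNA 3 rose and 1 fell. Ythdc2, an RNA helicase needed for meiotic entry, rose by 0.41 (limma adjusted p = 0.00173) and Dnd1, a germ cell RNA-binding protein gene, by 0.30 (adjusted p = 0.0108), and Zglp1, a regulator of oogenic fate, fell by 0.33 (adjusted p = 0.0118). With the Tet1 hairpins Ythdc2 was at 0.29 and 0.35 (limma adjusted p = 0.222 and 0.12).

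**Figure D5:**
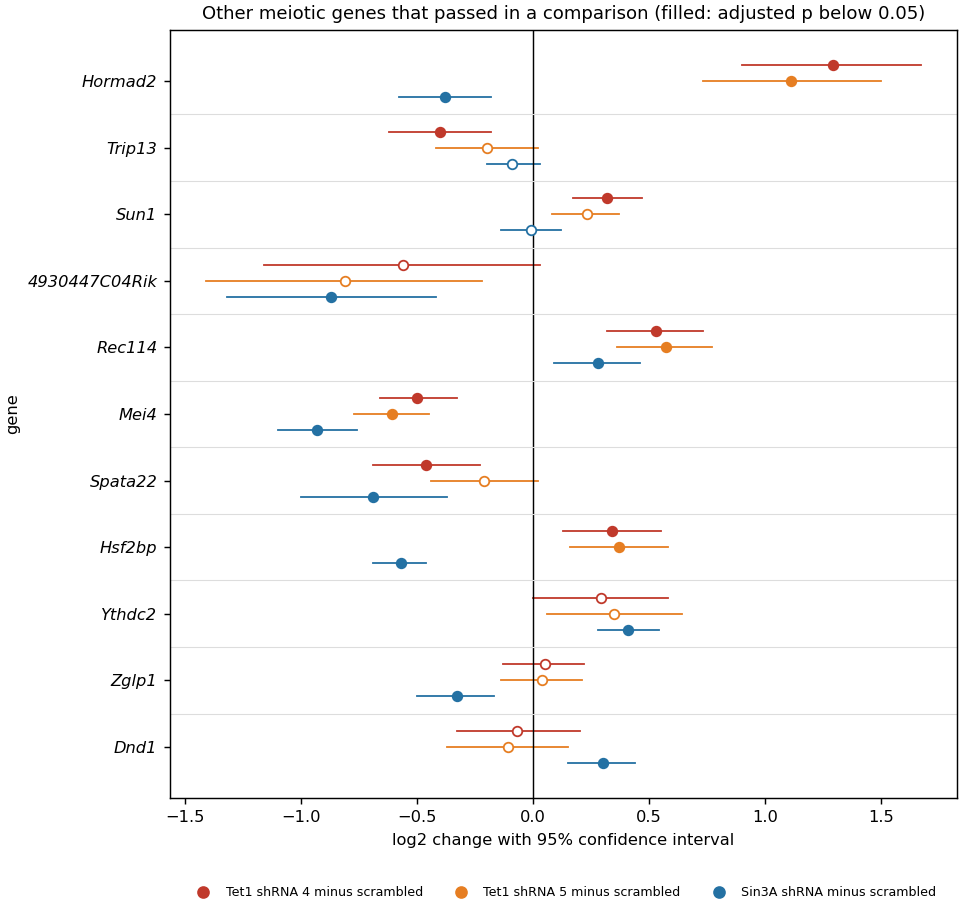
Log2 change (x axis, points) with 95% confidence interval (bars) of the genes of 3 other meiotic lists that passed, at most 3 per list and comparison by size of change, for Tet1 shRNA 4 (red), Tet1 shRNA 5 (orange) and the Sin3A shRNA (blue); filled points have a limma adjusted p below 0.05. Hormad2 and Hsf2bp have filled points above 0 with both Tet1 hairpins and below 0 with the Sin3A shRNA. All 3 points are filled and below 0 for Mei4, and filled and above 0 for Rec114. Trip13, Spata22 and 4930447C04Rik (Six6os1) lie below 0 in all 3, and Ythdc2 above 0, with some points open.

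Among 23 genes of chromatin repressors and DNA methyltransferases, 1 rose and 3 fell with Tet1 shRNA 4, 4 rose and 2 fell with shRNA 5, and 3 rose and 5 fell with the Sin3A shRNA, beside the same shares of all probe sets (12.2% higher and 12.6% lower for Sin3A). The Sin3A counts became 1 and 1 without replicate 2 of the Sin3A shRNA. The 3 higher also became 1 without scrambled replicate 1 or 3, and the 5 lower became 2 without scrambled replicate 2 and 3 without scrambled replicate 1 or 3. With shRNA 5 the 4 higher became 2 without scrambled replicate 3 or replicate 2 or 3 of that hairpin, and the 2 lower became 1 without any single array of the Tet1 set other than scrambled replicate 2. With shRNA 4 there were 2 higher without its replicate 2. Dnmt3b, a de novo DNA methyltransferase, fell with the Tet1 hairpins (log2 change -0.99 and -0.64; limma adjusted p = 1.14e-05 and 0.000126) and rose by 0.27 with the Sin3A shRNA (adjusted p = 0.0102). Dnmt3a fell by 0.33 with Tet1 shRNA 4 (limma adjusted p = 0.00369) and was at -0.07 with shRNA 5, and Dnmt3l, the cofactor of both enzymes, rose by 0.31 with shRNA 5 (adjusted p = 0.00629). In the Sin3A set Dnmt3a was called lower, with means of 10.11 (scrambled) and 9.94 (Sin3A shRNA), a call lost under 8 of 11 alternatives. Mga, which is a subunit of the Polycomb complex that binds E-boxes, was at 0.03 and -0.11 with the Tet1 hairpins and fell by 0.29 with the Sin3A shRNA (limma adjusted p = 0.0179, lost without replicate 2 of either group). Tfdp1, the E2F partner, fell by 0.55 with the Sin3A shRNA (limma adjusted p = 0.00023) and was at 0.09 with Tet1 shRNA 4. With shRNA 5 it was at 0.23 (limma adjusted p = 0.0294), a call lost under 8 of 17 alternatives. Wdr5, a subunit of histone methyltransferase complexes, rose by 0.50 and 0.49 with the Tet1 hairpins (limma adjusted p = 0.0024 and 0.00247). Of 12 mitotic cohesin and HORMA counterparts, 1 rose and 1 fell with shRNA 4, 1 rose and 2 fell with shRNA 5, and 0 rose and 2 fell with the Sin3A shRNA. The 2 lower with Sin3A became 1 without replicate 3 of the Sin3A shRNA and 0 without any other array of that set but scrambled replicate 3. With shRNA 5 the 2 lower became 1 without scrambled replicate 1 or 3 or replicate 1 or 2 of that hairpin, and with shRNA 4 there were 2 lower without scrambled replicate 2. Mad2l2 rose by 0.39 and 0.34 and the cohesin loader gene Mau2 fell with the Tet1 hairpins, with changes of -0.38 and -0.41. Smc1a, the mitotic counterpart of Smc1b, was at -0.17 and -0.36 with the Tet1 hairpins and at -0.21 with the Sin3A shRNA, and its calls for shRNA 5 and Sin3A were each lost under 6 alternatives that included leaving out single arrays. Stag1, a mitotic counterpart of Stag3, was at -0.05 and -0.01 with the Tet1 hairpins and at -0.21 with the Sin3A shRNA, a call lost under 5 of 11 alternatives. Sequence relatives could share probes with the members. Of the 20 listed 8 were measured, with 1 higher and 0 lower with shRNA 4, 1 higher and 2 lower with shRNA 5 and 0 higher and 5 lower with the Sin3A shRNA. Hormad2, Smc1a, Stag1 and Stag2 stand in this list and in an earlier one, so their calls are counted again here. The 5 lower became 1 without replicate 2 of the Sin3A shRNA, 2 without scrambled replicate 1 or 2 and 3 without replicate 1 of the Sin3A shRNA. With shRNA 5 the 2 lower became 0 without scrambled replicate 1 or 3 or replicate 1 of that hairpin, and 1 without scrambled replicate 2, replicate 2 or 3 of that hairpin or replicate 1 of shRNA 4. Without both arrays that stood apart 1 was lower with shRNA 5. With shRNA 4 there was 1 lower without scrambled replicate 2. Boll, of the Dazl family, was at -0.30 and -0.44 with the Tet1 hairpins, where Dazl rose, and at -0.58 with the Sin3A shRNA. Its calls, for shRNA 5 and the Sin3A shRNA, were lost under 11 of 17 and 3 of 11 alternatives that included leaving out scrambled replicate 1 or 2.

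Markers of germ cells and of other cell types were read beside these changes. Of 16 primordial germ cell markers 2 rose and 6 fell with Tet1 shRNA 4, 1 rose and 5 fell with shRNA 5, and 2 rose and 8 fell with the Sin3A shRNA. The shares of all probe sets were 6.88% higher and 4.71% lower, 8.37% and 5.46%, and 12.2% and 12.6%. The 2 higher with shRNA 4 became 1 without its replicate 1 and without both arrays that stood apart, and with shRNA 5 there were 2 higher without scrambled replicate 3. Their mean level over the list was 7.72 to 7.81 on the scrambled arrays of the Tet1 set and 7.54 to 7.61 with each hairpin, and it was 8.88 to 8.94 and 8.72 to 8.76 in the Sin3A set. Kit rose by 0.90 and 0.75, whereas Dppa3 (-0.99 and -0.97), Tfap2c (-0.71 and -0.63) and Prdm1 (-0.59 and -0.78) fell with the Tet1 hairpins. Dppa3, Tfap2c and Prdm1 fell with the Sin3A shRNA as well (-0.91, -0.62 and -0.38), and Dppa3 with shRNA 4 no longer passed once the arrays that stood apart were left out (limma adjusted p = 0.0577). Ddx4, a germ cell helicase gene, was at -0.08 and 0.00 with the Tet1 hairpins and fell by 0.41 with the Sin3A shRNA (limma adjusted p = 0.0136). Of 14 markers of later spermatogenic cells 0 passed with either Tet1 hairpin in limma (2 and 0 had an unadjusted p below 0.05) and 2 fell with the Sin3A shRNA (Ldhc at -0.25 and Piwil1 at -0.22, calls lost without replicate 2 of the Sin3A shRNA for Ldhc and under 5 of 11 alternatives for Piwil1), and 1 of the 14 was above the median probe set in every group. The 2 lower became 1 without any single array of the Sin3A set but scrambled replicate 2, and 1 of the list was higher without scrambled replicate 1 or replicate 1 of the Sin3A shRNA. Of 10 oocyte markers 2 were above the median probe set in every group. In that list 1 rose and 1 fell with shRNA 4, 1 rose with shRNA 5 and 1 fell with the Sin3A shRNA, where 1 was also higher without scrambled replicate 3. Sohlh2, a regulator of early oocytes and spermatogonia, rose by 0.93 and 0.83 with the Tet1 hairpins (limma adjusted p = 3.84e-05 and 8.07e-05), and Zp3 fell by 0.49 with shRNA 4 and fell by 0.75 with the Sin3A shRNA. Of 9 ES cell markers 2 rose with each Tet1 hairpin (Klf4 and Tdgf1), and with the Sin3A shRNA Klf4 rose and Nanog fell. Of these calls that of Klf4 for shRNA 5 was lost under 7 of 17 alternatives and those of Tdgf1 under 4 (shRNA 4) and 11 (shRNA 5), among them leaving out scrambled replicate 1 or 3. Of 9 fibroblast markers 1 rose with each Tet1 hairpin (Thy1, by 0.82 and 0.81) and 2 fell with the Sin3A shRNA (Pdgfrb at -0.58 and Thy1 at -0.23, the latter call lost under 5 of 11 alternatives). With shRNA 4 there were 2 fibroblast markers higher without scrambled replicate 2 or without its replicate 3. Probe sets differ in brightness, so a place above or below the median does not order abundance, and the part of these shifts in the members' changes was not tested.

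The genes whose 3 log2 changes lay nearest to those of a member by Euclidean distance, among 18149 genes, were named as a description. Nearest to Dazl was Jam3 (distance 0.029, with changes of 0.73, 0.76 and 0.09 for Tet1 shRNA 4, shRNA 5 and the Sin3A shRNA), then Ifnar2 (0.056) and Mtx2 (0.062). Nearest to Stra8 was Tmem177 (0.022, with changes of 0.47, 0.55 and 0.22), then Slc6a8 (0.039) and Ckap4 (0.045). Sycp3 had more distant neighbours, Gng3 (0.121, with changes of -1.24, -1.28 and -0.25), Ap1m2 (0.147) and Plekha3 (0.211).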

How the data were processed

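Per the labels' protocols, total RNA of each sample was prepared with Affymetrix's whole transcript assay and put on 1 array. The authors deposited log2 expression values for 21212 probe sets named by Entrez gene number, made with affy, RMA and limma per the submitters' processing notes; versions and order are not given in the sources used here. Groups came from the sample titles. Gene symbols came from the platform annotation: 18786 probe sets had 1 symbol, 6 several and 2420 none. Each member had 1 probe set. The members and gene lists were chosen with earlier results of these data known. Dazl, Stra8 and Sycp3 were picked for the search of nearest genes because such results named them.

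limma 3.58.1 in R 4.3.3 (lmFit, eBayes, two-sided) was run on the deposited log2 values, with Benjamini-Hochberg adjustment over all 21212 probe sets and a threshold of 0.05, after a check on simulated data. The Tet1 set (9 arrays, 3 group means) and the Sin3A set (6 arrays) were fitted separately, and the Tet1 minus Sin3A difference came from a model with 5 group means over the 15 arrays. A fold is 2 to the power of the log2 change. Named were all 10 members, Tet1 and Sin3a, in each of 11 other lists the genes that passed (at most 3 per hairpin comparison, by size), and the 3 nearest genes to Dazl, Stra8 and Sycp3. The lists were other axis, cohesin and synaptonemal complex genes, meiotic recombination genes, meiotic entry regulators, chromatin repressors and DNA methyltransferases, mitotic counterparts, sequence relatives, and markers of primordial germ cells, later spermatogenic cells, oocytes, ES cells and fibroblasts. Lists share some genes: Hormad2, Smc1a, Stag1 and Stag2 are also sequence relatives, and Nanos3 and Dnd1 are both entry regulators and germ cell markers.

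Arrays of Tet1 shRNA 4 and scrambled with the same replicate number deviated together from their group means (r = 0.274, 0.517 and 0.171 for replicates 1, 2 and 3). This was read from the data and not from the labels. The main fits were unpaired, and the replicate number entered only as a block in alternative fits. Unlike numbers correlated too (scrambled replicate 1 with shRNA 4 replicate 3 at 0.281, scrambled replicate 3 with shRNA 4 replicate 1 at 0.162), so that only replicate 2 was set apart. With the replicate number as a block the log2 change of Sycp3 was -1.31 with shRNA 4 (limma adjusted p = 0.007), and no member's call for shRNA 4 changed. Promoter windows came from RefSeq (GRCm38.p6). Alternatives were other normalizations, a filter on low values, a trended variance, the block, fewer groups and leaving out arrays.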

Additional observations from a re-analysis of the deposited data

Results flagged for a closer look

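The change with Tet1 knockdown (mean of both hairpins) differed from that with Sin3A knockdown, by a test of the difference itself (limma adjusted p below 0.05), for 6 of the 10 members, against 11.3% of all probe sets called higher and 8.71% called lower. The difference, Tet1 minus Sin3A on the log2 scale, was 0.70 for Dazl, 0.28 for Stra8, -1.06 for Sycp3, 0.57 for Syce1, 0.88 for Stag3 and 0.97 for Tex11. The calls of Sycp3 and Stra8 were lost under 6 and 7 of 21 alternatives. Stag3, Syce1 and Tex11 had mean Tet1 changes of 0.45, 0.19 and 0.36 and Sin3A changes of -0.43, -0.38 and -0.61. The mean Tet1 change of Tex11 rests partly on scrambled replicate 2 of the Tet1 set, the low one of its group.

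Among the other meiotic genes named, the difference was 1.58 for Hormad2, 0.93 for Hsf2bp, 0.37 for Mei4, 0.28 for Sun1 and 0.38 for Zglp1. Hormad2 had a mean Tet1 change of 1.20 and a Sin3A change of -0.38, and Hsf2bp 0.36 and -0.57, whereas Mei4 fell in both (-0.55 and -0.93). Among chromatin and cohesin genes it was -1.09 for Dnmt3b, 0.40 for Wdr5, 0.71 for Tfdp1, 0.36 for Mad2l2 and -0.26 for Mau2. Among the marker genes it was 0.80 for Kit, 0.90 for Sohlh2, 0.43 for Zp3, 0.32 for Nanog, 1.04 for Thy1 and 0.71 for Pdgfrb. The array means differed between the sets (7.08 to 7.11 against 8.09), and the part of that in these differences was not tested.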

How the results depend on the processing

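Every member's call with Tet1 shRNA 4 (Dazl, Stra8, Stag3, Sycp3) and with Tet1 shRNA 5 (Dazl, Stra8, Sycp3) was kept under all alternatives run. Over all comparisons, called members kept their call in 285 recomputed values and lost it in 25, and uncalled members stayed so in 487, gained a call in 6 and turned sign in 18. Leaving out 1 array at a time gave 2 to 3 members higher and 1 to 2 lower with shRNA 5, 0 to 1 higher and 3 to 5 lower with the Sin3A shRNA, and 0 to 1 lower in the Tet1 minus Sin3A difference. Without both arrays that stood apart 2 members were lower with shRNA 5. Between the Tet1 hairpins 1 member (Stag3) was lower after repeated quantile normalization and after the filter on low values.

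The number of probe sets called with the Sin3A shRNA was 5261, and 3359 to 4944 without 1 array. Between the Tet1 hairpins it was 30, and 0 to 36 without 1 array, 61 with the filter on low values, 48 with a trended variance, 0 with only the 2 groups compared and 1 without both arrays that stood apart. With the replicate block it was 0, with or without the third group, and the block with only the 2 groups compared gave 1280 called with Tet1 shRNA 5 against 2934. That last fit was added after the data were seen, and the numbers did not pair the arrays of shRNA 5 (r = -0.14, -0.287 and 0.0361) or of the Sin3A set (-0.00472, 0.0212 and -0.274).

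In some comparisons a member that did not pass changed sign when 1 array was left out. The ranges were -0.02 to 0.06 (Dazl), -0.01 to 0.12 (Stra8), -0.41 to 0.13 (Sycp3), -0.02 to 0.11 (Syce1) and -0.10 to 0.04 (Tex11) between the Tet1 hairpins. They were -0.04 to 0.15 for Sycp1 with shRNA 5, -0.07 to 0.07 for Hormad1 with the Sin3A shRNA and -0.06 to 0.19 for Smc1b with shRNA 4. Without both arrays that stood apart Dazl was at -0.02 between the hairpins and Sycp1 at -0.04 with shRNA 5. The cause was not tested. The mean over probe sets of a gene was not run, since no member had more than 1.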
